A study of Mus musculus with 6 samples.

Results

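The genes described here are 9 core genes of the transforming growth factor beta (TGF-beta) pathway, chosen by symbol from the 17975 genes of a liver expression table. They comprise the ligand genes Tgfb1, Tgfb2 and Tgfb3, the latency genes Ltbp1 and Ltbp2, the receptor genes Tgfbr1 and Tgfbr2, the inhibitor Smad7 and the target gene Tgfbi. RNA was sequenced from whole liver tissue of 3 wild-type (WT) mice and 3 Hom mice, 1 liver per mouse. Hom mice were NEK7 fl/fl Alb-Cre+, a homozygous deletion of Nek7 in which Cre is driven by the albumin promoter, which is active in hepatocytes. Recombination in each cell type was not measured in these data. Neither group received a treatment according to the sources used here. The study's notes give an age range for its mice as a whole and state that animals of both sexes were used in the knockout work; the age and sex of these 6 mice, and whether the WT mice carried floxed alleles or Cre, were not found in the sources used here. The floxed and Cre lines were both on a B6 background.

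TGF-beta is secreted as a latent complex. The propeptide of each ligand stays bound to the mature cytokine and is linked to a latent TGF-beta binding protein (LTBP), which anchors the complex in the matrix until integrins, proteases or thrombospondin free the ligand. The active ligand binds the type II receptor TGFBR2, which recruits and phosphorylates the type I receptor TGFBR1, and the SMAD2 and SMAD3 proteins then carry the signal to the nucleus with SMAD4. SMAD7 blocks the activated type I receptor and is itself induced by the pathway. In the liver, macrophages and stellate cells are well known sources of TGF-beta, and the pathway is known for driving collagen production by activated stellate cells.

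Levels are given as CPM, that is, estimated read counts scaled to a common library size after a correction for library composition with trimmed mean of M values (TMM) factors. Totals were even, from 19349418 to 19730236 estimated counts per liver, whereas the TMM factors spanned 0.806 to 0.924 for WT and 1.09 to 1.23 for Hom. Scaling by library size alone moved the median log2 fold change of all 13805 tested genes from −0.00175 to 0.45. Nek7, the deleted gene, was 62.9, 69.1 and 63.7 CPM in WT replicates 1 to 3 and 14.5, 18.1 and 16.7 CPM in Hom replicates 1 to 3, or 25.2% of the WT mean (p = 0.1 by exact two-sided permutation, which is as low as 3 against 3 livers can go). Hom replicate 1 stood apart from the other livers in its Y-linked genes: Ddx3y and Kdm5d had 0 counts there and at least 630 and 243 counts in each of the other 5 livers. Uty and Eif2s3y had 149 and 4 counts there and at least 464 and 582 counts in each of the other 5 livers. The 9 genes and the counts over the pathway lists are therefore also given without Hom replicate 1. The counts over the cell type marker lists are given for all 6 livers only. Leaving it out lost the calls of Smad3, Acta2 and Klf10, gained one for Tgfbr3, and reversed Ltbp4, Smad6 and Inhba, none of which passed, among the genes refitted. The hepatocyte markers Alb, Ttr and Apoa1, which define liver tissue, were abundant in all 6 livers. In bulk tissue, fewer cells of a type and less RNA per cell cannot be told apart.

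All 9 genes passed the filter on low counts, and 6 of them rose in the Hom group, compared with 21.5% of all genes tested. The test was the quasi-likelihood test of edgeR at a threshold of 0.05, after Benjamini-Hochberg adjustment over all genes tested, and adjusted p-values below are from it unless another tool is named. These were Ltbp2, Tgfb2, Tgfb3, Tgfbr2, Ltbp1 and Tgfbr1, and for each of them the 3 Hom livers lay above the 3 WT livers, which held for 28.7% of all tested genes. None of the 9 was lower by this test, against 20.1% of all tested genes. Tgfb1, Tgfbi and Smad7 did not pass. With the second tool, DESeq2, the counts were 7 higher and 0 lower. Across the 9 genes the log2 fold change had a median of 1.34. The count of higher genes was again 6 without Hom replicate 1. Ltbp2, with 9 to 18 counts per WT liver, passed the filter only through the Hom livers, so its call is not used as support. With at least 10 counts in every liver it was untested. The count of higher genes was then 5, compared with 20.9% of all genes tested at that setting. The 9 genes and the lists below were chosen with earlier results of these data known, so these shares are descriptions.

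**Figure D1:**
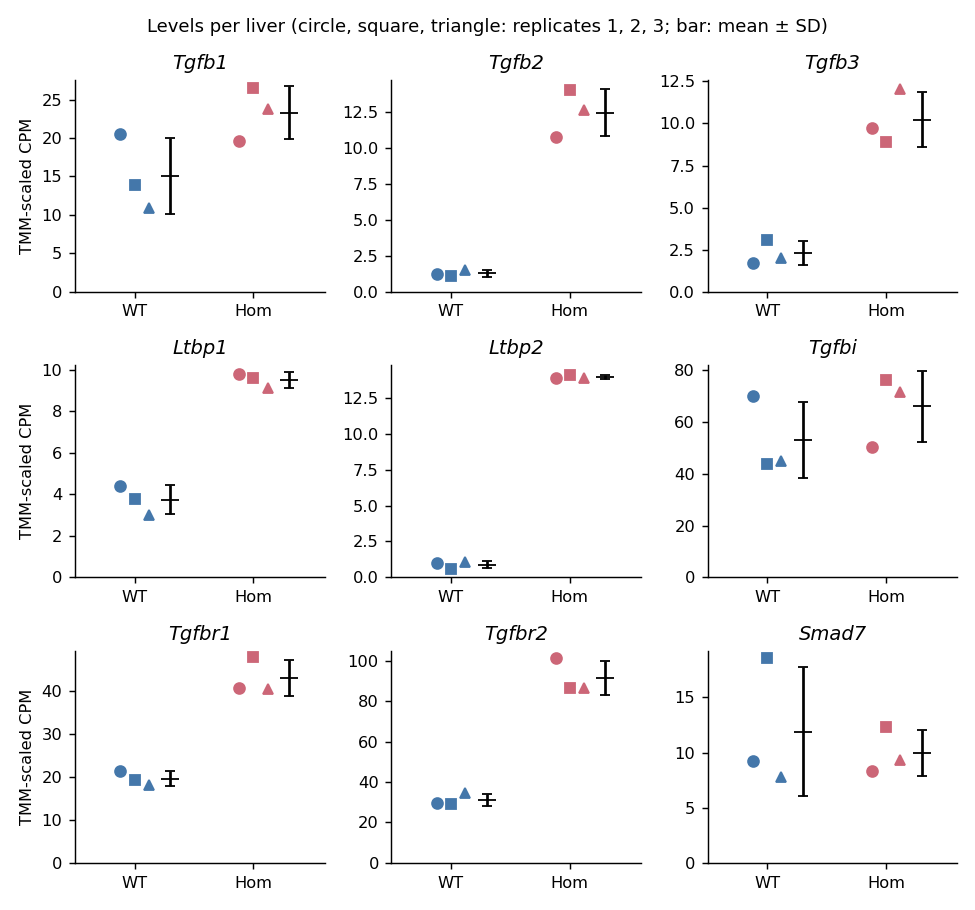
Level of each of the 9 genes in TMM-scaled CPM (y axis, linear, from 0) in WT and Hom livers; circles, squares and triangles are replicates 1, 2 and 3, and black bars give the mean ± SD of 3 livers. The groups are apart for Tgfb2, Tgfb3, Ltbp1, Ltbp2, Tgfbr1 and Tgfbr2 and overlap for Tgfb1, Tgfbi and Smad7, where WT replicate 2 is the highest liver at 18.6 CPM.

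**Figure D2:**
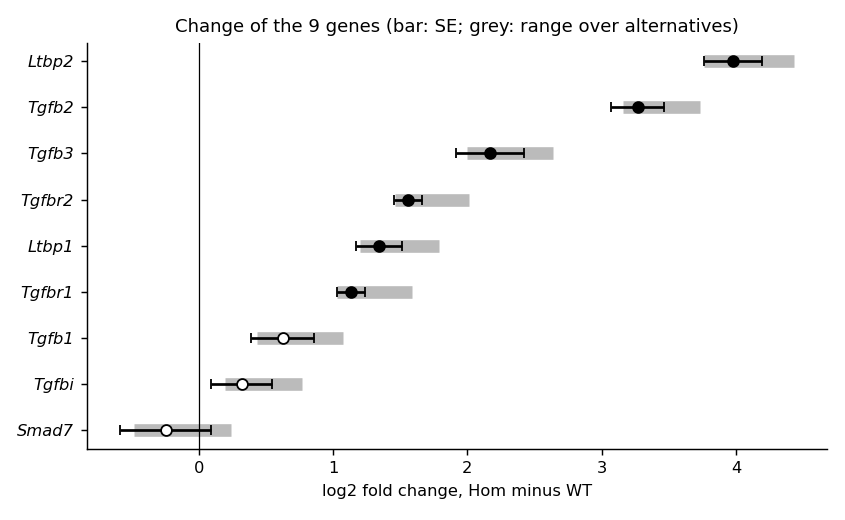
Log2 fold change of the 9 genes, Hom minus WT (x axis), with the standard error as a black bar and the range over the alternative settings as a grey band; filled points passed an adjusted p of 0.05. The genes run from Ltbp2 at 3.98 to Smad7 at −0.25, the only one whose band crosses 0.

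The promoter sequences of Tgfb1, Tgfb2 and Ltbp2 are shown because these genes give the smallest ligand difference and the 2 largest differences of all 9 genes. Entries in the RefSeq promoter table (GRCm38.p6) were matched for 7 of the 9 genes, that is, all but Tgfb3 and Smad7. The match left out the chromosome that holds Smad7, so an entry for that gene was not sought. Each line gives the 250 bases before the annotated start of the transcript, 5′ to 3′ on the strand of the gene, with matches in capitals to the TATA box core TATAAA, the GC box GGGCGG, the E-box CACGTG, the cyclic AMP element TGACGTCA, the AP-1 site TGANTCA and the SMAD palindrome GTCTAGAC, each searched on both strands (the GC box reads CCGCCC when it lies on the other strand). Tgfb1 is at chr7:25686752-25687001 on the plus strand, Tgfb2 at chr1:186705990-186706239 on the minus strand and Ltbp2 at chr12:84876492-84876741 on the minus strand.
Tgfb1: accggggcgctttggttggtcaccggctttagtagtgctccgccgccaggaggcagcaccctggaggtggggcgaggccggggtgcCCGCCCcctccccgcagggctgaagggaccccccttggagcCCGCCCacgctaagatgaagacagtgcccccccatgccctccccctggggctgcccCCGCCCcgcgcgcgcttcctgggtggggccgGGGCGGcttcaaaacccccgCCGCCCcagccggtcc
Tgfb2: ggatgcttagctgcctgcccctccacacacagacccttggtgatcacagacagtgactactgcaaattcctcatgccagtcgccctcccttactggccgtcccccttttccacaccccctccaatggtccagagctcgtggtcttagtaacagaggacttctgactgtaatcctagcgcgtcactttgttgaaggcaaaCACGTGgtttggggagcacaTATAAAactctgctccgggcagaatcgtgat
Ltbp2: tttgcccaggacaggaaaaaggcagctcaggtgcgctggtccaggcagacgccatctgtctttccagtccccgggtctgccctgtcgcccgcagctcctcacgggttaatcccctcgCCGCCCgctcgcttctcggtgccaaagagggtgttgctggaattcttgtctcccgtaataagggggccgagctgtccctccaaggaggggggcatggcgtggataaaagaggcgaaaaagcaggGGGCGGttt

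The 3 windows differed in composition. That of Tgfb1 was 75.2% G and C, against a median of 52.4% over all promoter windows, and held 5 GC boxes, whose first bases lie 164 to 16 bases before the start, and no TATA box core. The Tgfb2 window was 53.6% G and C and held a TATA box core 31 bases and an E-box 51 bases before the start. In the Ltbp2 window, which was 61.6% G and C, GC boxes lay 133 and 9 bases before the start. Of 32851 promoter windows of the same length, 12.4% held TATAAA, 32.7% held GGGCGG and 6.02% held CACGTG. The short SMAD element GTCTG, left in lower case, was in 42.2% of all windows; it matched at 2 places each in the Tgfb2 and Ltbp2 windows and at none in the Tgfb1 window. The SMAD palindrome, in 0.167% of all windows, was in none of the 3. A match to these letters is a description of the window, not evidence of binding.

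Among the ligands, the 2 genes that were rare in WT livers differed most. Tgfb2 encodes TGF-beta 2, whose propeptide lacks the RGD integrin motif of the other isoforms. It was 1.23, 1.09 and 1.54 CPM in WT replicates 1 to 3 and 10.7, 14.0 and 12.6 CPM in Hom replicates 1 to 3. Every Hom liver was several-fold above every WT liver. The means were 1.29 ± 0.228 CPM (SD, n = 3) in WT and 12.4 ± 1.63 CPM (SD, n = 3) in Hom livers, 9.67-fold higher, with a log2 fold change of 3.27 (SE 0.20, edgeR adjusted p = 1.93e-04). Only 17 to 25 counts per liver stood behind the WT level, against 230 to 339 in Hom livers. The log2 fold change was 3.36 when Hom replicate 1 was left out.

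Tgfb3, the gene of TGF-beta 3, was 1.73, 3.08 and 2.03 CPM in the WT livers and 9.71, 8.90 and 12.1 CPM in the Hom livers. The highest WT liver, replicate 2, was still under all Hom livers. The mean rose from 2.28 ± 0.708 to 10.2 ± 1.65 CPM (SD, n = 3 each), 4.49-fold, with a log2 fold change of 2.17 (SE 0.25, edgeR adjusted p = 0.00121). Leaving out Hom replicate 1 gave 2.20.

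Tgfb1, the gene of the main isoform in most tissues, was 20.6, 13.9 and 10.9 CPM in WT replicates 1 to 3 and 19.6, 26.5 and 23.8 CPM in Hom replicates 1 to 3. The groups overlapped, since WT replicate 1 was above Hom replicate 1. The mean was 15.1 ± 4.96 CPM in WT and 23.3 ± 3.45 CPM in Hom livers (SD, n = 3 each), a log2 fold change of 0.62 (SE 0.24), which did not pass the test (edgeR adjusted p = 0.0706). The call depended on the setting. It was made by DESeq2 (0.63, adjusted p = 0.0367), by edgeR with library size alone (1.07, adjusted p = 0.0179) and by edgeR without WT replicate 1 (0.91, adjusted p = 0.0105), and the adjusted p was between 0.0105 and 0.193 over 13 alternatives. Leaving out Hom replicate 1 gave 0.73 (edgeR adjusted p = 0.0674).

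The 3 ligands can be compared with each other on the scale of TPM, a transcript abundance that divides by gene length, and as a share of their sum within 1 liver, which no scaling between livers can move. Tgfb1 was 92.7%, 85.3% and 84.9% of the ligand transcripts in WT replicates 1 to 3 and 64.9%, 69.7% and 64.8% in Hom replicates 1 to 3. It was the most abundant ligand transcript in all 6 livers, and its share was lower in every Hom liver. Tgfb2 made up 2.29% to 5.02% in WT and 14.2% to 15.4% in Hom livers, and Tgfb3 4.99% to 12.1% in WT and 14.9% to 21.0% in Hom livers. For each of the 3 shares the groups did not overlap (p = 0.1 by exact two-sided permutation, the lowest value this design can give; 0.13 after Benjamini-Hochberg adjustment over 13 such shares, sums and ratios). In every WT liver Tgfb3 (0.820 to 1.24 TPM) was above Tgfb2 (0.270 to 0.410 TPM), whereas in Hom livers the 2 genes overlapped, at 5.94 to 8.19 and 4.27 to 6.46 TPM.

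**Figure D3:**
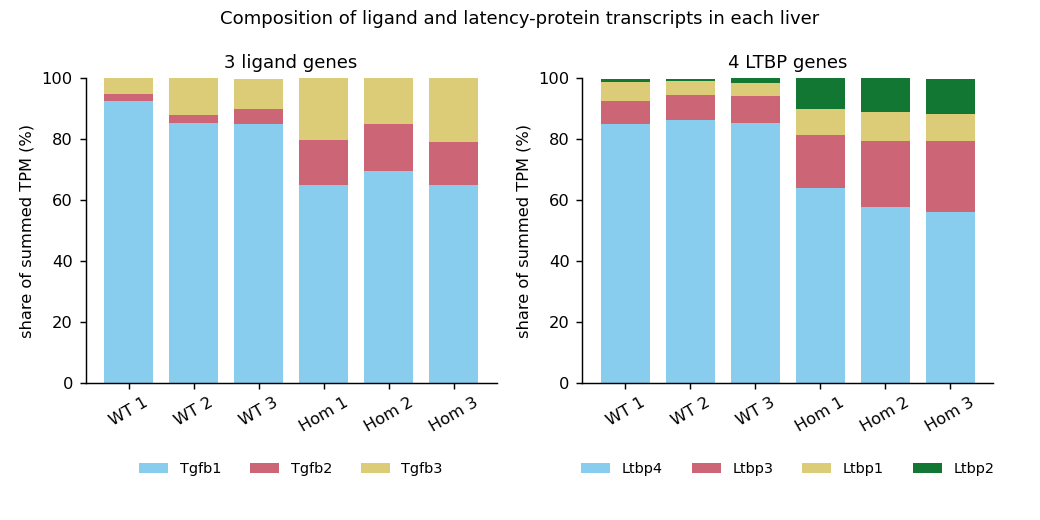
Share of summed TPM (y axis, percent) that each gene took in each of the 6 livers, for the 3 ligand genes and for the 4 LTBP genes. Tgfb1 made up 84.9% or more of the ligand transcripts in WT livers and 69.7% or less in Hom livers, and Ltbp4 84.9% or more and 63.9% or less of the LTBP transcripts.

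Both latency genes were higher in Hom livers. Ltbp2 encodes a matrix protein of the LTBP family that binds fibrillin and, unlike its relatives, is not known to bind latent TGF-beta. It was 1.01, 0.577 and 1.04 CPM in WT replicates 1 to 3 and 13.9, 14.1 and 13.9 CPM in Hom replicates 1 to 3. The Hom livers were nearly equal to each other and far above all WT livers. The mean rose from 0.876 ± 0.259 to 14.0 ± 0.124 CPM (SD, n = 3 each), 15.9-fold, with a log2 fold change of 3.98 (SE 0.22, edgeR adjusted p = 1.59e-04). It ranked 119 of the 13805 tested genes by log2 fold change. The WT level rested on 9 to 18 counts per liver. Ltbp2 thus passed the filter on low counts only through the Hom livers, and its call is not used as support. A filter of at least 10 counts per liver in all livers left the gene untested and 5 of the other 8 genes called higher. Leaving out Hom replicate 1 again gave 3.98.

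Ltbp1, the gene of the founding member of the family, was 4.41, 3.78 and 3.01 CPM in the WT livers and 9.80, 9.61 and 9.10 CPM in the Hom livers. The groups were well apart and the Hom livers again close together. The mean was 2.54-fold higher, from 3.74 ± 0.702 to 9.50 ± 0.364 CPM (SD, n = 3 each; log2 fold change 1.34, SE 0.17, edgeR adjusted p = 0.00168). Leaving out Hom replicate 1 gave 1.32. Its first listed promoter window (chr17:75005279-75005528, plus strand) held the cyclic AMP element TGACGTCA 73 bases before the start, a motif present in 1.55% of all windows.

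Ltbp3 and Ltbp4 complete the family and are not among the 9 genes. Ltbp3 rose (log2 fold change 1.97, SE 0.12, edgeR adjusted p = 2.24e-04), whereas Ltbp4 did not pass (0.08, SE 0.13, adjusted p = 0.644) and its sign turned under length correction and without Hom replicate 1. With library size alone Ltbp4 passed as higher (0.53, edgeR adjusted p = 0.00786). By TPM, Ltbp4 was 84.9%, 86.4% and 85.4% of the 4 LTBP transcripts in WT replicates 1 to 3 and 63.9%, 57.7% and 56.2% in Hom replicates 1 to 3. Ltbp2 took 0.656% to 1.43% in WT and 10.0% to 11.5% in Hom livers, Ltbp3 7.63% to 8.95% and 17.5% to 23.2%, and Ltbp1 4.22% to 6.24% and 8.60% to 9.32%. None of these 4 shares overlapped between the groups (exact permutation p = 0.1 each, 0.13 adjusted over the same 13).

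Both receptor genes were higher in Hom livers. Tgfbr1, the type I receptor kinase, was 21.4, 19.2 and 18.2 CPM in the WT livers and 40.7, 47.8 and 40.5 CPM in the Hom livers. The lowest Hom liver was close to 2-fold above the highest WT liver. The mean rose 2.19-fold, from 19.6 ± 1.67 to 43.0 ± 4.19 CPM (SD, n = 3 each; log2 fold change 1.13, SE 0.11, edgeR adjusted p = 6.03e-04), and without Hom replicate 1 the log2 fold change was 1.17.

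Tgfbr2, the ligand-binding type II receptor, was 29.7, 29.1 and 34.4 CPM in the WT livers and 101, 86.3 and 86.7 CPM in the Hom livers. Hom replicate 1 was the highest, and all 3 Hom livers were far above the WT livers. The mean was 2.94-fold higher (31.1 ± 2.92 against 91.4 ± 8.49 CPM, SD, n = 3 each; log2 fold change 1.56, SE 0.11, edgeR adjusted p = 2.77e-04), and 1.48 without Hom replicate 1. By TPM there was more Tgfbr2 than Tgfbr1 in every liver. The ratio was 1.67, 1.82 and 2.26 in WT and 3.00, 2.16 and 2.58 in Hom livers, with overlapping groups (exact permutation p = 0.2, 0.236 adjusted).

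Smad7, the inhibitory SMAD, did not follow the receptors. It was 9.27, 18.6 and 7.80 CPM in WT replicates 1 to 3 and 8.35, 12.3 and 9.31 CPM in Hom replicates 1 to 3. WT replicate 2 was the highest of the 6 livers, about 2-fold above the other WT livers, and the groups overlapped. The means were 11.9 ± 5.86 CPM in WT and 10.0 ± 2.07 CPM in Hom livers (SD, n = 3 each; log2 fold change −0.25, SE 0.34, edgeR adjusted p = 0.584). The sign turned to 0.22 without WT replicate 2 (adjusted p = 0.456) and to 0.24 with library size alone, and it was −0.13 without Hom replicate 1 (adjusted p = 0.806 from edgeR). Within a liver, the ratio of Smad7 to Tgfbr1 by TPM was 0.612, 1.34 and 0.607 in WT and 0.282, 0.360 and 0.336 in Hom livers, lower in each Hom liver than in any WT liver (exact permutation p = 0.1, 0.13 adjusted). WT replicate 2 was also the highest WT liver for some other TGF-beta targets that respond early to many stimuli (chosen after their values were seen): Klf10 was 74.8 CPM there against 21.5 and 28.0 CPM in WT replicates 1 and 3, and Bhlhe40 was 165 CPM against 67.8 and 89.5 CPM. Other targets did not follow: in WT replicates 1 to 3, Rhob was 46.2, 32.2 and 25.7 CPM and Snai1 was 2.40, 1.54 and 1.84 CPM.

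Tgfbi, an extracellular matrix protein named for its induction by TGF-beta, was 70.0, 43.9 and 45.0 CPM in WT replicates 1 to 3 and 50.4, 76.3 and 71.6 CPM in Hom replicates 1 to 3. WT replicate 1 lay among the Hom livers, and Hom replicate 1 near the other WT livers. The means were 53.0 ± 14.7 and 66.1 ± 13.8 CPM (SD, n = 3 each; log2 fold change 0.32, SE 0.23, edgeR adjusted p = 0.293). Over 13 alternatives its adjusted p was between 0.0528, without WT replicate 1, and 0.584, and leaving out Hom replicate 1 gave 0.48 (edgeR adjusted p = 0.121).

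Tgfb1 and Tgfbi ordered the 6 livers much as macrophage markers did. The summed level of 18 macrophage markers was 923, 410 and 385 CPM in WT replicates 1 to 3 and 636, 879 and 732 CPM in Hom replicates 1 to 3. WT replicate 1, high for both genes, had the highest sum of all livers. Of the 18 markers, 4 were higher and 3 lower in Hom livers, shares of 22.2% and 16.7% that are near those of all tested genes (21.5% and 20.1%), and none was at 0 in any liver. The median of their log2 fold changes was 0.76. Relative to that sum, Tgfb1 was 2.23%, 3.38% and 2.82% in WT and 3.09%, 3.02% and 3.25% in Hom livers, with overlap (exact permutation p = 0.5, 0.5 adjusted). Tgfbi was 7.58%, 10.7% and 11.7% in WT and 7.92%, 8.68% and 9.78% in Hom livers, also with overlap (exact permutation p = 0.5, 0.5 adjusted). The part of macrophage content in either gene's level was not tested.

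**Figure D4:**
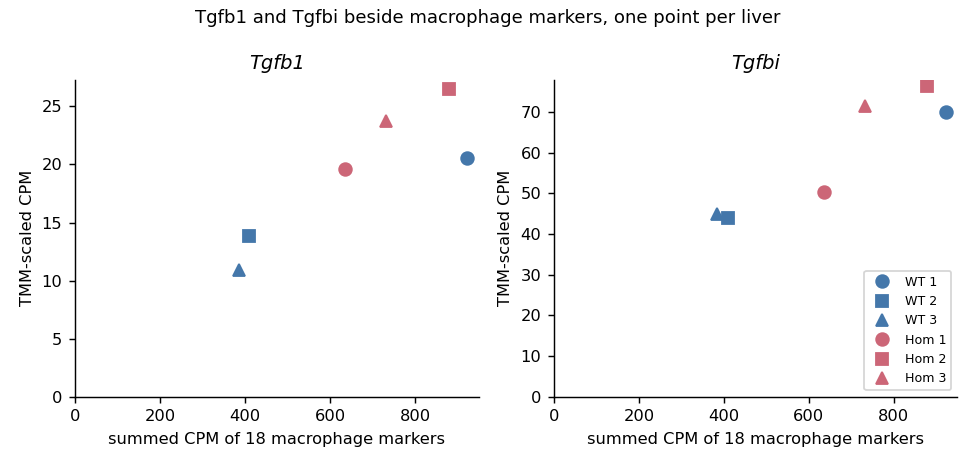
Level of Tgfb1 and of Tgfbi (y axis, TMM-scaled CPM) against the summed level of 18 macrophage markers (x axis, CPM), with 1 point per liver and replicates 1, 2 and 3 as circles, squares and triangles. WT replicates 2 and 3 are at the lower left, with sums of 410 and 385 CPM, and WT replicate 1, at 923 CPM, lies on the right beside the Hom livers.

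Markers of the other liver cell types are given against the same shares of all tested genes, 21.5% higher and 20.1% lower. Of 13 cholangiocyte markers, 12 were higher in Hom livers (92.3%) and their sum was 83.7 to 124 CPM in WT and 720 to 1010 CPM in Hom livers. Of 20 hepatocyte markers, 12 were lower (60.0%) and none was higher, and the sum was 184000 to 218000 CPM in WT and 93500 to 135000 CPM in Hom livers. Of 19 tested stellate cell and fibroblast markers, 9 were higher (47.4%) and 4 lower (21.1%), and the sum was 564 to 710 CPM in WT and 587 to 628 CPM in Hom livers, so that the summed levels overlapped. Of 15 endothelial markers, 8 were lower (53.3%), and their sum was 337 to 456 CPM in WT and 240 to 247 CPM in Hom livers. Near the shares of all genes, lymphocyte markers, with 2 of 9 tested higher (22.2%), summed to 7.38 to 12.0 and 11.1 to 18.9 CPM, and platelet markers, with 1 of 4 tested higher (25.0%), to 4.94 to 9.21 and 5.07 to 7.09 CPM. The defining markers Krt7, Krt19, Epcam, Lrat, Des, Pdgfrb, Pecam1, Cdh5, Stab2, Cd3e, Cd79a and Pf4 had counts in every liver, and the platelet marker Gp9 was at 0 in WT replicate 3 and Hom replicate 1. The part of these cell types in the levels of the 6 higher TGF-beta genes was not tested.

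The genes with the most similar pattern were sought among 209 pathway and marker genes, by the root mean square difference between profiles of log2(CPM + 1) over the 6 livers, each centred on its own mean. For Tgfb1 and Tgfbi the nearest gene was Adgre1, the macrophage marker F4/80, with differences of 0.125 and 0.111, followed for both by Tgif2. The nearest genes to Tgfb2 were Lum (0.123), Col1a2 (0.202) and Col3a1 (0.230), which encode fibrillar collagens and a collagen-binding proteoglycan. For Tgfb3 they were Ltbp3 (0.159), Krt7 (0.204) and Pdgfra (0.213). Ltbp1 and Tgfbr1 were near each other (0.104), and Emilin1 was still nearer to Ltbp1 (0.0936). Ltbp2 was nearest to Col1a1 (0.220) and Plat (0.241), and Tgfbr2 to Bmp8b (0.132) and Pdgfrb (0.145). For Smad7 the nearest gene, Smad4, was farther away, at 0.296. Each profile carries both the difference between the groups and the spread within them, so likeness here is a description of 6 livers. The added 1 CPM also shrinks the differences of genes near 0, so a near match is not an equal fold change. Bmp8b had a log2 fold change of 3.99 and Tgfbr2 of 1.56, and Tgfb2 had 3.27 and Lum 2.48.

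Storage and activation of latent TGF-beta were described by a list of 24 further genes, of which 23 were tested. Of these, 15 were higher (65.2%, against 21.5% of all tested genes) and 3 lower (13.0%, against 20.1%) in the Hom group, and their log2 fold changes had a median of 0.98, against −0.00175 over all tested genes. The counts were 14 and 3 without Hom replicate 1, and also 14 and 3 with at least 10 counts in every liver. The integrin subunit gene Itgav rose (0.87, SE 0.11, edgeR adjusted p = 0.00165). Itgb6, whose product pairs with it into an integrin that releases active TGF-beta, had 4 to 6 counts per WT liver and 44 to 73 counts per Hom liver. It passed the filter on low counts only through the Hom livers and was untested with at least 10 counts in every liver. Its call and that of Fbn2 are among the 15 but not among the 14 at that setting. Neither call is used as support. Itgb8, which pairs with the same alpha subunit, had 1 to 2 counts in WT and 8 to 15 counts in Hom livers and was too low to be tested.

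Thbs1, the gene of thrombospondin 1, an activator of the latent complex, was 2.18, 2.31 and 5.22 CPM in WT and 9.94, 13.2 and 13.0 CPM in Hom livers (log2 fold change 1.90, SE 0.35, edgeR adjusted p = 0.00592). Plat, tissue plasminogen activator, was 0.614, 0.898 and 0.676 CPM in WT and 9.75, 11.5 and 13.8 CPM in Hom livers (4.00, SE 0.23, adjusted p = 1.83e-04). Fbn2, the gene of fibrillin 2, to which LTBPs attach, had 1, 0 and 7 counts in WT and 38, 57 and 69 counts in Hom livers; it too passed the filter only through the Hom livers, and its fitted log2 fold change moved from 3.83 to 6.04 without WT replicate 3. All 3 genes had every Hom liver above every WT liver. In the other direction, Bmp1, a protease that also cleaves LTBP1, fell by 0.58 on the log2 scale (SE 0.11, edgeR adjusted p = 0.00666) with TMM factors, a difference that did not pass with library size alone. Itgb3 was lower (−1.32, SE 0.41, edgeR adjusted p = 0.0401), but this call was lost with upper-quartile factors, with library size alone, with the replicate block and when any 1 of WT replicates 1 and 2 and Hom replicates 2 and 3 was left out.

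Co-receptors, SMAD proteins and their regulators were described by 30 tested genes. Of these, 10 were higher (33.3%, against 21.5% of all tested genes), 4 were lower (13.3%, against 20.1%) and 16 did not pass, with a median of 0.09 on the log2 scale. The counts were 8 and 4 without Hom replicate 1. With library size alone they were 20 and 0, and with upper-quartile factors 2 were lower. Among the genes of the signal carriers, Smad3 passed the test. It was 15.8, 21.4 and 18.6 CPM in WT and 25.4, 23.1 and 28.8 CPM in Hom livers (log2 fold change 0.47, SE 0.14, edgeR adjusted p = 0.0313). The Smad3 call was lost with the replicate block, under length correction and when any 1 of WT replicates 1 and 3 and Hom replicates 1 and 3 was left out. Smad2 (0.24, adjusted p = 0.201 from edgeR), Smad4 (−0.20, adjusted p = 0.165 from edgeR, and 0.25 with library size alone) and Smad6 (0.05, adjusted p = 0.823 from edgeR) did not pass. Smad2 did pass as higher with library size alone (0.71, edgeR adjusted p = 0.00424). Smad4 did pass as lower under length correction (−0.31, edgeR adjusted p = 0.0397).

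The genes of 2 negative regulators that TGF-beta itself induces were higher. Pmepa1, which sequesters receptor-activated SMADs, was 6.81, 6.67 and 7.13 CPM in WT and 17.3, 22.8 and 25.0 CPM in Hom livers (log2 fold change 1.66, SE 0.16, edgeR adjusted p = 6.37e-04). Bambi, a pseudoreceptor without a kinase domain, was 3.02, 2.95 and 2.21 CPM in WT and 6.30, 4.95 and 5.99 CPM in Hom livers (1.07, SE 0.20, adjusted p = 0.00654). In both, the Hom livers lay above all WT livers, which contrasts with the overlapping levels of Smad7. Skil, another inducible repressor of SMADs, did not pass (0.36, edgeR adjusted p = 0.110). The call of Skil depended on the setting, since it passed with library size alone (0.81, edgeR adjusted p = 0.0124). Usp11, a deubiquitinase that acts on TGFBR1, was higher (1.25, SE 0.30, edgeR adjusted p = 0.0163), but not without WT replicate 2 (1.05, adjusted p = 0.0512), Hom replicate 2 (1.20, adjusted p = 0.0592) or Hom replicate 3 (1.10, adjusted p = 0.0697).

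The co-receptor genes did not pass the test. Tgfbr3, betaglycan, which presents TGF-beta 2 to the type II receptor, was 10.6, 9.30 and 10.0 CPM in WT and 8.82, 6.60 and 4.96 CPM in Hom livers (log2 fold change −0.55, SE 0.22, edgeR adjusted p = 0.0767), and passed without Hom replicate 1 (−0.79, adjusted p = 0.0184). Eng, endoglin, an endothelial co-receptor, was at −0.24 (edgeR adjusted p = 0.116), and 0.21 with library size alone. Under length correction Eng passed as lower (−0.32, edgeR adjusted p = 0.0463). Ppm1a, a SMAD phosphatase, and Map3k7, the kinase TAK1, each fell by 0.42 on the log2 scale (SE 0.08, edgeR adjusted p = 0.00556 and 0.00808), but with library size alone both were near 0, at 0.03 and 0.04.

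Transcriptional targets of TGF-beta were described by 33 tested genes. Of these, 17 were higher (51.5%, against 21.5% of all tested genes) and 3 lower (9.09%, against 20.1%), with a median of 1.00 on the log2 scale. These counts were 16 and 2 without Hom replicate 1, and 14 and 3 with at least 10 counts in every liver. Some of the 17, such as Timp1 and Vcan, passed the filter only through the Hom livers. Their calls are not used as support. The collagen gene Col1a1 was 13.0, 12.2 and 20.2 CPM in WT and 152, 140 and 161 CPM in Hom livers, 9.99-fold higher (3.32, SE 0.20, edgeR adjusted p = 2.00e-04). Acta2, the smooth muscle actin of activated stellate cells, was 1.34, 2.37 and 3.93 CPM in WT and 7.47, 5.98 and 5.34 CPM in Hom livers (1.30, SE 0.37, edgeR adjusted p = 0.0294), and this call was lost with the replicate block and when any 1 of WT replicate 2 and the 3 Hom livers was left out.

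Other well known targets did not pass the test. Ccn2, connective tissue growth factor, was 23.8, 24.4 and 21.2 CPM in WT and 21.5, 24.9 and 34.1 CPM in Hom livers (log2 fold change 0.22, SE 0.17, edgeR adjusted p = 0.347). With library size alone Ccn2 passed as higher (0.68, edgeR adjusted p = 0.0267). Fn1, fibronectin, which hepatocytes also secrete into plasma, was at −0.16 (SE 0.21, edgeR adjusted p = 0.568), and 0.28 with library size alone. Of the 3 lower genes, Cdkn1a, the cell cycle inhibitor p21 and also a p53 target, was 96.5, 95.8 and 88.2 CPM in WT and 25.1, 21.0 and 26.6 CPM in Hom livers (−1.95, SE 0.11, edgeR adjusted p = 1.59e-04). Klf10 was lower as well (−1.61, SE 0.47, edgeR adjusted p = 0.0312), a call lost with library size alone and when any 1 of the 3 Hom livers was left out. Without WT replicate 2, its highest liver, the log2 fold change of Klf10 was −0.87 (edgeR adjusted p = 0.0346). Nox4, an NADPH oxidase, was 45.1, 55.3 and 43.2 CPM in WT and 11.4, 26.8 and 28.6 CPM in Hom livers (−1.10, SE 0.32, edgeR adjusted p = 0.0307). Hom replicate 1 was the lowest liver for Nox4.

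Of the other ligands of the TGF-beta superfamily and their antagonists, 24 were tested, of which 10 were higher (41.7%, against 21.5% of all tested genes) and 3 lower (12.5%, against 20.1%), with a median of 0.50 on the log2 scale. Leaving out Hom replicate 1 gave 10 and 4, and at least 10 counts in every liver gave 7 and 3. Bmp6, which controls hepcidin and is made by endothelial cells of the liver, was 5.58, 6.22 and 4.24 CPM in WT and 31.6, 21.5 and 29.6 CPM in Hom livers (2.36, SE 0.20, edgeR adjusted p = 4.94e-04). Its partner in the same role, Bmp2, was 23.6, 20.0 and 15.7 CPM in WT and 5.97, 5.24 and 6.25 CPM in Hom livers (−1.76, SE 0.17, adjusted p = 7.44e-04). These 2 genes moved in opposite directions, with no overlap in either. Bmp8b had 2 to 3 counts per WT liver and 52 to 67 counts per Hom liver, and it passed the filter on low counts only through the Hom livers.

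Gdf2, the gene of BMP9, a ligand secreted by stellate cells, was lower (log2 fold change −1.03, SE 0.17, edgeR adjusted p = 0.00417), as was Inhbc, the hepatocyte activin C subunit (−1.22, SE 0.14, adjusted p = 0.00105). Inhba (0.03, edgeR adjusted p = 0.880) and Inhbe (−0.41, adjusted p = 0.520) did not pass. Their signs also turned with the setting, among others for Inhbe with library size alone (0.10) and for Inhba under length correction (−0.08). Bmper, a regulator of BMP signalling with 4 to 16 counts per WT liver, was 0.614, 0.257 and 0.983 CPM in WT and 20.8, 2.23 and 3.19 CPM in Hom livers (3.80, SE 1.02, edgeR adjusted p = 0.0236). Bmper passed the filter on low counts only through the Hom livers, so its call is not used as support. Hom replicate 1 was far above the other 2 Hom livers, and the call was lost when any 1 of the 3 WT livers was left out (adjusted p = 0.0643, 0.0854 and 0.0542 without WT replicates 1, 2 and 3). When Hom replicate 1 was left out, the log2 fold change of Bmper was 2.11 (SE 0.51, edgeR adjusted p = 0.0226).

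**Figure D5:**
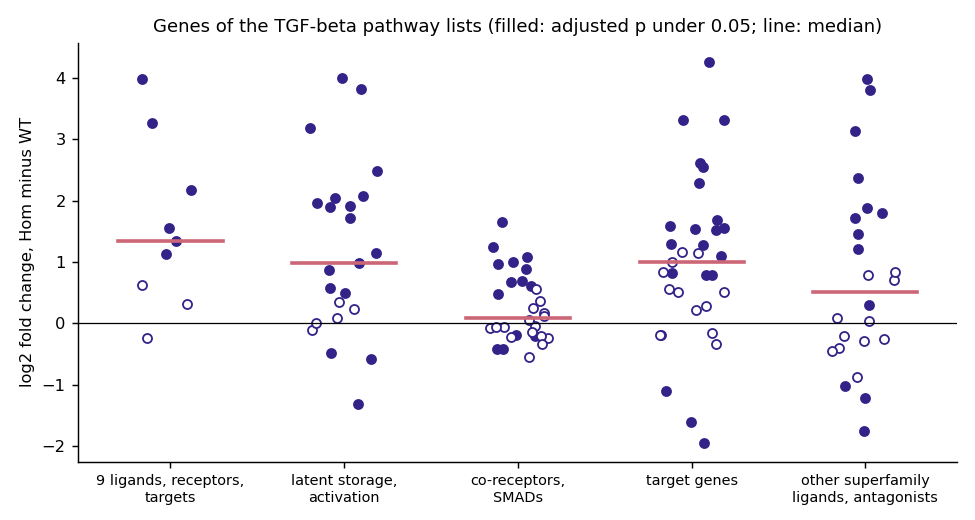
Log2 fold change, Hom minus WT (y axis), of each tested gene in the list of 9 and in the 4 further pathway lists (x axis); filled points passed an adjusted p of 0.05, horizontal bars are medians, and points are spread sideways for legibility. Medians run from 1.34 for the 9 genes through 0.98 and 1.00 for the latent storage and target lists and 0.50 for the other ligands to 0.09 for co-receptors and SMAD genes.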

How the data were processed

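RNA was extracted with Trizol from livers of 3 WT and 3 Hom mice and sequenced on DNBSEQ by BGI Genomics. The submitters' processing notes name HISAT2 2.0.4, Bowtie2 2.2.5, RSEM 1.2.12 and the build mm9, without roles or order; the annotation and strand setting are not given in the sources used here. The authors deposited estimated counts (expected counts, not normalized), FPKM (scaled by gene length and library size) and TPM per liver for 17975 genes. The deposited group means carry crossed names, each equalling the mean of the other group for all genes (to within 0.01 plus 1e-04 of the value), and were not used.

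Estimated counts, of which 65.9% were whole to within 1e-08, were rounded and tested in R 4.3.3 with edgeR 4.0.16 (filterByExpr, TMM factors, quasi-likelihood test, Benjamini-Hochberg adjustment over 13805 genes, threshold 0.05, no minimum fold change). TPM entered only shares and ratios within a liver, and FPKM only the gene lengths, available for 88.7% of genes. Standard errors were computed from each fold change and its F statistic. The script was tested on simulated data. Named genes were Nek7, the 9 genes, 23 listed pathway genes, and per list the 2 highest and 2 lowest log2 fold changes of called genes of at least 1 CPM without overlap; 1 of them is not reported here. Members and lists were chosen with earlier results of these data known. Same-numbered WT and Hom livers came from different mice, and the correlations of their deviations were −0.0499, −0.0313 and 0.00727. Libraries of a group differed by more than counting noise (chi-square of at least 22.3 per degree of freedom). Alternatives were DESeq2 1.42.0, library size alone, upper-quartile factors, no filter, at least 10 counts in every liver, the replicate block, length correction by loess (span 0.5) and leaving out each liver. Promoters are from RefSeq, whose build differs from the named build, so no position of the reads was used. Total counts were nearly equal between livers, but the TMM factors spanned 0.806 to 1.23, so depth after scaling was not. Depth limits mainly genes with few counts, such as the WT levels of Tgfb2 and Ltbp2.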

Additional observations from a re-analysis of the deposited data

How the results depend on the processing

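Of the 9 TGF-beta genes, the 6 called higher stayed higher and past the threshold under every alternative in which they were tested; Ltbp2 was not tested with at least 10 counts in every liver. For the 9 genes, 111 of 116 comparisons kept direction and call, 3 gained a call (Tgfb1) and 2 reversed (Smad7). Over all 46 named genes and 592 comparisons, 533 kept both, 29 lost the call, 13 gained one and 17 reversed; the causes were not tested. Library size alone gave 6574 genes higher and 642 lower (91.1% of calls higher, against 51.7% with TMM factors; 62.8% with upper-quartile factors), 0 lower latent storage genes, 20 higher and 0 lower co-receptor and SMAD genes and 1 lower target gene. It reversed Smad7 (0.237), Eng (0.208), Smad4 (0.254), Fn1 (0.284), Inhbe (0.104), Ppm1a (0.0304) and Map3k7 (0.0351). Lower co-receptor and SMAD genes numbered 2 with upper-quartile factors, with no filter and with at least 10 counts in every liver, and 8 with length correction, which reversed Ltbp4 (−0.0205) and Inhba (−0.0785).

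Leaving out 1 liver gave 1767 to 2750 lower genes (1829 without Hom replicate 2 and 1767 without Hom replicate 3), 1 to 3 lower latent storage genes (1 without WT replicate 2, Hom replicate 2 or Hom replicate 3), 2 to 4 lower co-receptor and SMAD genes (2 without WT replicate 1, WT replicate 2 or Hom replicate 2) and 1 to 3 lower target genes (1 without Hom replicate 2). Ranges over these fits were −0.48 to 0.223 for Smad7, −0.0457 to 0.155 for Ltbp4, −0.0437 to 0.124 for Smad6, −0.0737 to 0.122 for Inhba and −0.96 to 0.0639 for Inhbe. Reversals were Smad7 (0.223), Smad6 (−0.0437) and Inhbe (0.0639) without WT replicate 2, Inhba (−0.0737) without WT replicate 3, Ltbp4 (−0.0457), Smad6 (−0.0269) and Inhba (−0.00862) without Hom replicate 1, and Inhba (−0.0225) without Hom replicate 3.

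With replicate block terms in the fit, 2383 genes were higher and 2214 lower, 6 of the 9 TGF-beta genes were higher and 2 co-receptor and SMAD genes were lower. The numbers mark different mice and the correlations of same-numbered livers were near 0, so the block is not a pairing; Smad3, Acta2 and Itgb3 lost their calls with it. P-values rest on 3 livers per group.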
